A study of Homo sapiens with 9 samples.

Results

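The 10 genes described here encode proteins of the cornified envelope or the enzyme that joins them: the small proline-rich proteins SPRR1A, SPRR1B, SPRR2A, SPRR2D and SPRR3, involucrin (IVL), cornifelin (CNFN), the transglutaminase TGM1, and the plakins periplakin (PPL) and envoplakin (EVPL). They were matched by Ensembl gene ID, 10 of the 60308 gene IDs counted, and were chosen by their CPM in these same 9 libraries, with results already known, so their values are a description. In all 9 libraries the enzyme and both plakins were expressed at moderate levels, while the 7 other genes were low. Of these, SPRR1A and SPRR3 lay near the limit of detection. With hairpins against EHMT2, no member passed the test in any comparison. The members nearest to a separation of the groups were SPRR1B, with lower values in shG9a_1 libraries, and SPRR2A, with higher values in most knockdown libraries.

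RNA was sequenced from 9 cultures of MCF10A, an immortalised but not tumour-derived line of human breast epithelial cells with many basal features. All 9 cultures, controls included, carried ectopic MYC (pBABE-hygro-MYC) and the mutant kinase PI3KH1047R (pMN-IRES-GFP-PI3KH1047R), so none stands for the parental line. A tet-inducible pLKO vector added a hairpin against EHMT2, which encodes the histone H3 lysine 9 methyltransferase G9a, in the shG9a_1 and shG9a_4 groups, or a scrambled hairpin in shSCR (n = 3 cultures each). Doxycycline at 2 µg/mL for 72 hours induced the hairpin in all 3 groups, and RNA was taken from subconfluent cells. The comparisons ask which genes differ in RNA level after knockdown of EHMT2.

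The cornified envelope is the insoluble protein shell that replaces the plasma membrane of keratinocytes as they die at the surface of the epidermis. Its assembly starts when PPL and EVPL line the inner face of the membrane. TGM1, a membrane-bound transglutaminase, then cross-links involucrin and later precursors, among them loricrin and the small proline-rich proteins, which act as cross-bridges. Most of the soluble precursors are encoded side by side in the epidermal differentiation complex on chromosome 1. In culture, involucrin and the small proline-rich proteins are classical markers of squamous differentiation, and cells of breast origin can express them when they take on squamous traits.

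Depth was 53065611 to 76958831 reads in genes per library, with 26759 to 28346 genes detected. EHMT2 had 17.6, 22.6 and 21.0 CPM (read counts scaled to the size of the library) in shG9a_1, 32.1, 27.2 and 33.5 CPM in shG9a_4, and 51.1, 45.2 and 45.4 CPM in shSCR. All 6 knockdown libraries lay under all 3 shSCR libraries. EHMT2 fell in shG9a_1, by 1.21 on the log2 scale (SE 0.11, adjusted p = 0.00766 in edgeR's quasi-likelihood test). Leaving out the first shSCR library moved the adjusted p to 0.0611, and leaving out the second or the third library of shG9a_1 moved it to 0.0513 or 0.0622. In shG9a_4 its log2 fold change of −0.61 (SE 0.11) did not pass, with an adjusted p of 0.259 in edgeR, while DESeq2 gave an adjusted p of 0.000701. Basal epithelial markers were present in all libraries, KRT5 at 1841 to 3209 CPM, as were the luminal keratins KRT8 and KRT18, at means of 199 and 261 CPM. Other luminal markers ranged from means of 0.0554 CPM in KRT19 and 0.183 CPM in CLDN4 to 38.5 CPM in EPCAM. Markers of other cell types were low but not absent: the list for leukocytes summed to 3.69 to 8.07 CPM per library, that for endothelium to 1.40 to 3.00 CPM and that for melanocytes to 6.05 to 10.3 CPM. MS4A1 (B cells), CLDN5 (endothelium) and TYR (melanocytes) had 0 reads. However, CD14 and CSF1R (leukocytes) averaged 3.95 and 1.49 CPM, TEK and KDR (endothelium) 1.26 and 0.806 CPM, and MITF (melanocytes) 8.19 CPM. Of the fibroblast markers, DCN was at 135 to 413 CPM and COL1A2 at 0 to 0.148 CPM.

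Promoter sequences are shown for 4 members because their starts differ in the features that the text returns to: IVL, SPRR1B and SPRR2A lie in the chromosome 1 cluster, while CNFN lies on chromosome 19. Each run holds 250 bases before and 50 after the annotated start, from RefSeq on GRCh38.p14, which is not the build of the counts. It is written 5′ to 3′ on the gene's strand, at chr1:152908296-152908595 (+) for IVL, chr1:153030953-153031252 (+) for SPRR1B, chr1:153057463-153057762 (−) for SPRR2A and chr19:42390248-42390547 (−) for CNFN. Capitals mark matches to TGANTCA, the letters of an AP-1 site, searched on both strands, and to TATAAA, the letters of a TATA box, searched on the coding strand.
IVL promoter: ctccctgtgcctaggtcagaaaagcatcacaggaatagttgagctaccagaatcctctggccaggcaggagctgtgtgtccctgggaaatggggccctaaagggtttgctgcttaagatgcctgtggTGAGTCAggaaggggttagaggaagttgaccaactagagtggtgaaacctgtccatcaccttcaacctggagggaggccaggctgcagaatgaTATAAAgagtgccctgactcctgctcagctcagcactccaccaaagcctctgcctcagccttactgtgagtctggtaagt
SPRR1B promoter: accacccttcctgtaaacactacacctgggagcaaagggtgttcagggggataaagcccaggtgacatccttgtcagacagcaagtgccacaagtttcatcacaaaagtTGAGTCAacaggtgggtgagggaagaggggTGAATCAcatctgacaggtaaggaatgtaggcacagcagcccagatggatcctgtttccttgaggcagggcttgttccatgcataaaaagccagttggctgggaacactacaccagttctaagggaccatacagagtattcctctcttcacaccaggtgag
SPRR2A promoter: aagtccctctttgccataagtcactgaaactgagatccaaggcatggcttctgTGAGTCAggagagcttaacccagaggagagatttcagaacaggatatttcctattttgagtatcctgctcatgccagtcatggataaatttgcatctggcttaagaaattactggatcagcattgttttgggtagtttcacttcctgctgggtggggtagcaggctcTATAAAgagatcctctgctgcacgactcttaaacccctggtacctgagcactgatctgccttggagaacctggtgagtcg
CNFN promoter: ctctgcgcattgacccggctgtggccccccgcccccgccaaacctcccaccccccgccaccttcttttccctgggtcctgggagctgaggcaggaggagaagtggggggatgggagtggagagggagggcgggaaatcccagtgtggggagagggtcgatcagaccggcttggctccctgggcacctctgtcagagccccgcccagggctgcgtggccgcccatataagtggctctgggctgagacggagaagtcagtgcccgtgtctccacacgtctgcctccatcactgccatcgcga

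RefSeq promoters matched 6 of the 10 members, the 4 above with SPRR1A and SPRR3. TGANTCA was found in 5 of the 6, all in the chromosome 1 cluster, and in 7.71% of the 35116 promoters in the table. The matches began 123 bases before the start in IVL, 141 and 111 bases before it in SPRR1B, 197 in SPRR2A, 108 in SPRR1A and 170 in SPRR3. TATAAA was found in 4 of the 6, at 29 bases before the start in SPRR1A and SPRR3 and at 30 in IVL and SPRR2A, and in 7.33% of all promoters. SPRR1B and CNFN held no TATAAA in this window. No match of either motif overlapped a match of the other. These matches describe letters in a window and are not evidence that a factor binds there.

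The same 5 promoters of the chromosome 1 cluster held few CpG dinucleotides, the sites of DNA methylation. IVL and SPRR1B had 0, SPRR3 had 1, SPRR2A had 2 and SPRR1A had 3, against a median of 14 over all 35116 promoters. The lower quartile of all promoters was 4, so each of the 5 lay under it. CNFN had 16 CpG, close to the median. GC content was 43.3 to 53.3% in the 5 and 67.0% in CNFN, beside a median of 58.7%.

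**Figure D1:**
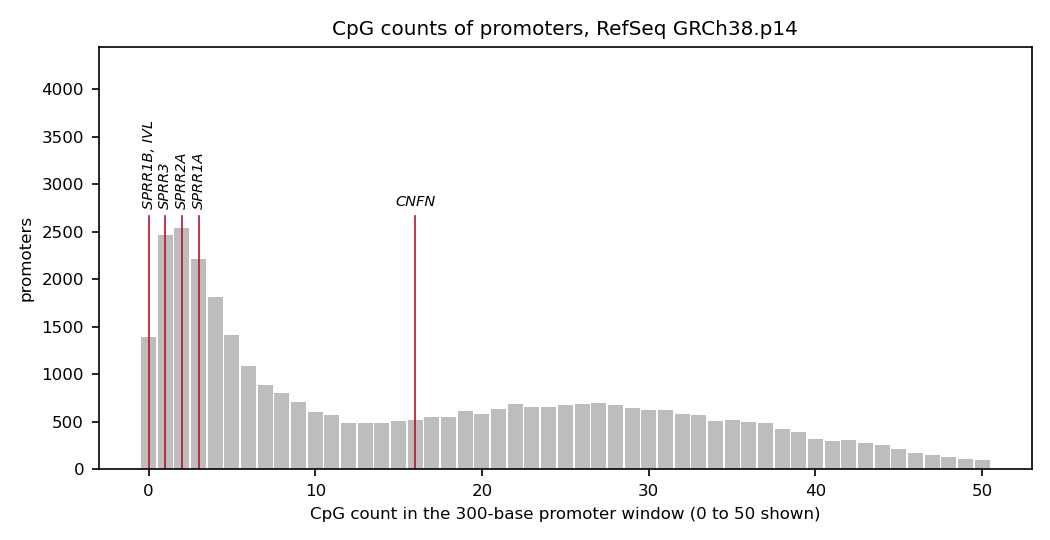
The histogram gives the number of RefSeq promoters (y axis) with each count of CpG in the 300-base window (x axis, 0 to 50 shown), and red lines mark the 6 members with a promoter in the table. The 5 members of the chromosome 1 cluster sit at 0 to 3 CpG at the left edge, and CNFN sits at 16.

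Levels were compared per length, as CPM per kb of annotated exon sequence (GENCODE 29). PPL averaged 2.50, EVPL 2.43 and TGM1 2.26 CPM per kb over the 9 libraries. These 3 lay above the median protein-coding gene, which had 1.16 CPM per kb, and their library values overlapped so widely (1.51 to 3.58 for PPL, 1.48 to 3.31 for EVPL and 1.40 to 3.18 for TGM1) that their order is not resolved. The next gene, SPRR2D, averaged 0.384 CPM per kb, which is 5.88-fold under TGM1. No library of any of the 7 lower genes, whose highest single value was 0.571 in SPRR1B, reached the lowest library of TGM1.

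Among the 7 lower genes, SPRR2D at 0.384, SPRR1B at 0.380 and CNFN at 0.325 CPM per kb came first, followed by SPRR2A at 0.231 and IVL at 0.230. All neighbours in that order overlapped between libraries. SPRR1A averaged 0.0577 and SPRR3 0.0147 CPM per kb, and both were without a read in some libraries. The annotated SPRR1A model is 270 bases long, so its value per kb rests on 9 reads over all libraries. In reads, TGM1, PPL and EVPL together had 25774, against 889 for the other 7. The 7 lower genes summed to 62 to 157 reads per library, and the 5 small proline-rich genes to 30 to 80.

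**Figure D2:**
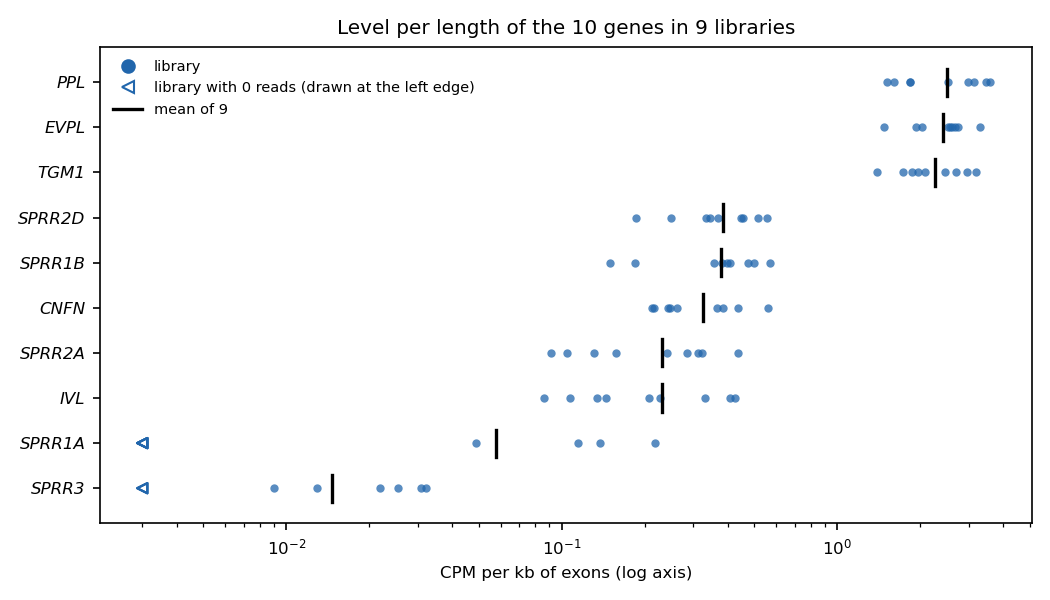
Each blue point is the level of a gene in 1 of the 9 libraries, in CPM per kb of exons on a log axis, with black bars for the mean and open triangles at the left edge for libraries without a read. PPL, EVPL and TGM1 average 2.26 to 2.50, and the other 7 genes lie at 0.384 or less on average.

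The core of the epidermal differentiation complex had few reads in these cultures. Between TCHHL1 and LORICRIN, RefSeq orders 45 coding genes, of which 42 were matched, and their reads summed to 83 to 193 per library. No gene of this stretch reached a mean of 1 CPM, and 17 had no read in any library, among them LORICRIN, which encodes the main protein of the epidermal envelope, SPRR4 and SPRR2B. At this depth 3 reads correspond to 0.0390 to 0.0559 CPM, so a level below that cannot be told from none. IVL had the highest mean of the stretch, 0.496 CPM, and 4 of the 5 genes that passed the filter on low counts were members (IVL, SPRR1B, SPRR2A and SPRR2D). The other was TCHH (trichohyalin, a protein of the hair follicle), with a mean of 0.324 CPM.

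The enzyme and the plakins carry the best supported values of the group. TGM1 had 7.34, 9.20 and 11.9 CPM in shG9a_1, 7.77, 6.98 and 11.04 CPM in shG9a_4, and 6.48, 5.22 and 10.1 CPM in shSCR. The 3 groups overlapped, and replicate 3 was the highest library of each. TGM1 averaged 9.48 ± 2.29 CPM in shG9a_1, 8.60 ± 2.15 CPM in shG9a_4 and 7.25 ± 2.51 CPM in shSCR (SD, n = 3 each), with log2 fold changes over shSCR of 0.39 (SE 0.26) in shG9a_1 and 0.25 (SE 0.26) in shG9a_4. In bulk RNA, fewer cells that express a gene and less RNA per cell cannot be told apart. Set beside the shSCR library of the same replicate number, TGM1 was higher in 3 of 3 numbers in both hairpins, by 0.18, 0.82 and 0.24 on the log2 scale in shG9a_1 and by 0.26, 0.42 and 0.13 in shG9a_4. With the number as a block the SE was 0.13, and neither hairpin passed the threshold over all genes. Both hairpins were set beside the same shSCR libraries, and no label pairs the numbers. For the other tested members in shG9a_1, the count was 3 of 3 in SPRR2D and IVL and 2 of 3 in SPRR2A and PPL. It was 1 of 3 in EVPL and CNFN and 0 of 3 in SPRR1B. In shG9a_4 it was 3 of 3 in SPRR2A and PPL, 2 of 3 in IVL and EVPL, and 1 of 3 in SPRR1B, SPRR2D and CNFN.

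PPL had 11.6, 24.2 and 26.8 CPM in shG9a_1, 14.1, 19.4 and 27.5 CPM in shG9a_4, and 12.4, 14.2 and 22.9 CPM in shSCR. The spread within each group exceeded the distance between groups, and replicate 1 was the lowest and replicate 3 the highest library in all 3. Its log2 fold change was 0.34 (SE 0.33) in shG9a_1 and 0.30 (SE 0.33) in shG9a_4. EVPL, the partner with which PPL forms dimers, had 15.2, 19.3 and 19.0 CPM in shG9a_1, 20.6, 11.1 and 24.8 CPM in shG9a_4, and 19.6, 14.5 and 20.03 CPM in shSCR. The values of EVPL overlapped in all 3 groups, and both the highest and the lowest library of the 9 were in shG9a_4. Its log2 fold changes were −0.017 (SE 0.24) in shG9a_1 and 0.062 (SE 0.24) in shG9a_4, and the low library, shG9a_4 replicate 2, was also the one that differed most from the others of its group over all genes, with a chi-square per degree of freedom of 59.1 and 78.9, against 25.2 to 37.9 in the 7 other pairs. Without it the EVPL value was 0.32 in shG9a_4.

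Involucrin, the classical early precursor, had 54, 62 and 24 reads in shG9a_1, 22, 31 and 17 in shG9a_4, and 15, 55 and 10 in shSCR. That is 0.881, 0.915 and 0.445 CPM in shG9a_1, 0.289, 0.491 and 0.311 CPM in shG9a_4, and 0.232, 0.714 and 0.186 CPM in shSCR. Replicate 2 was the highest library in every group, and the 2 other shSCR libraries lay under all knockdown libraries. Over the groups, IVL averaged 0.747 ± 0.262 CPM in shG9a_1, 0.364 ± 0.110 CPM in shG9a_4 and 0.377 ± 0.293 CPM in shSCR (SD, n = 3 each). The log2 fold change was 0.94 (SE 0.47) in shG9a_1 and −0.11 (SE 0.50) in shG9a_4, and −1.05 (SE 0.47) between shG9a_4 and shG9a_1. Set beside libraries of the same replicate number, IVL was higher in shG9a_1 than in shSCR in 3 of 3 numbers, by 1.93, 0.36 and 1.26 on the log2 scale, and lower in shG9a_4 than in shG9a_1 in 3 of 3. In shG9a_4 it was higher than in shSCR in 2 of 3. With the number as a block the value in shG9a_1 was 1.04 (SE 0.32), which did not pass over all genes. Both differences from shSCR depended on shSCR replicate 2: without it they were 1.83 in shG9a_1 and 0.77 in shG9a_4. Without shG9a_4 replicate 1 the shG9a_4 value was 0.048.

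SPRR1B had 7, 15 and 5 reads in shG9a_1, 18, 16 and 16 in shG9a_4, and 20, 19 and 19 in shSCR. In CPM these were 0.114, 0.221 and 0.0928 in shG9a_1, 0.237, 0.253 and 0.293 in shG9a_4, and 0.309, 0.247 and 0.354 in shSCR. All shG9a_1 libraries lay under all libraries of both other groups, while shG9a_4 and shSCR overlapped. SPRR1B reached the 0.157 CPM that the filter on low counts asks for in 1 of 3 shG9a_1 libraries. It did so in 3 of 3 libraries of shG9a_4 and of shSCR, so it entered the test through the groups where it was higher. The reads of a group gave 0.148 CPM (95% exact Poisson interval 0.0972 to 0.215) in shG9a_1, 0.258 CPM (0.191 to 0.340) in shG9a_4 and 0.297 CPM (0.225 to 0.384) in shSCR, and these intervals cover counting error only. SPRR1B had a log2 fold change of −1.03 (SE 0.36) in shG9a_1, −0.21 (SE 0.33) in shG9a_4 and 0.82 (SE 0.37) between shG9a_4 and shG9a_1. EHMT2 was also lowest in shG9a_1, but the hairpins differ in their sequence as well, and dose and hairpin cannot be told apart.

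SPRR2A, another small proline-rich gene of the same cluster, had 14, 21 and 4 reads in shG9a_1, 13, 14 and 11 in shG9a_4, and 6, 5 and 6 in shSCR. In CPM these were 0.228, 0.310 and 0.0742 in shG9a_1, 0.171, 0.222 and 0.201 in shG9a_4, and 0.0926, 0.0649 and 0.112 in shSCR. All shG9a_4 libraries lay above all shSCR libraries, and of shG9a_1 the first 2 did, while the third lay between shSCR libraries. The reads of a group gave 0.213 CPM (95% exact Poisson interval 0.152 to 0.291) in shG9a_1, 0.196 CPM (0.139 to 0.269) in shG9a_4 and 0.0870 CPM (0.0507 to 0.139) in shSCR. Its log2 fold change was 1.23 (SE 0.50) in shG9a_1 and 1.15 (SE 0.50) in shG9a_4. SPRR2A passed the filter on low counts through its knockdown libraries, since 5 of 6 of these and 0 of 3 shSCR libraries reached the 0.157 CPM that it asks for, so it entered the test through those libraries alone. Of its 75-base windows, 23.9% occur in another gene of GENCODE 29, mostly SPRR2B (18.7%), SPRR2E (15.3%) and SPRR2D (11.7%), and reads from those stretches may be lost or assigned to a relative, so its level is uncertain.

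SPRR2D, the relative with the most reads, showed no such separation. Its libraries had 0.587, 0.546 and 0.390 CPM in shG9a_1, 0.197, 0.475 and 0.366 CPM in shG9a_4, and 0.262, 0.480 and 0.354 CPM in shSCR. The 3 groups overlapped, with log2 fold changes of 0.47 (SE 0.35) in shG9a_1 and −0.11 (SE 0.36) in shG9a_4. Of its windows, 8.72% were shared with other genes, most often SPRR2A. CNFN had 0.147, 0.221 and 0.148 CPM in shG9a_1, 0.263, 0.158 and 0.128 CPM in shG9a_4, and 0.232, 0.338 and 0.130 CPM in shSCR. It overlapped in all 3 groups as well, at −0.46 (SE 0.42) in shG9a_1 and −0.35 (SE 0.41) in shG9a_4.

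SPRR1A and SPRR3 did not pass the filter on low counts and were not tested. SPRR1A, which encodes a protein closely related to that of SPRR1B, had 0, 4 and 0 reads in shG9a_1, 1, 0 and 0 in shG9a_4, and 2, 0 and 2 in shSCR. SPRR3, typical of the oesophagus and other internal squamous epithelia, had 0, 3 and 0 reads in shG9a_1, 0, 2 and 2 in shG9a_4, and 3, 1 and 1 in shSCR. Every library of both lay at or about the level of a few reads, and no difference between groups was detectable at this depth.

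**Figure D3:**
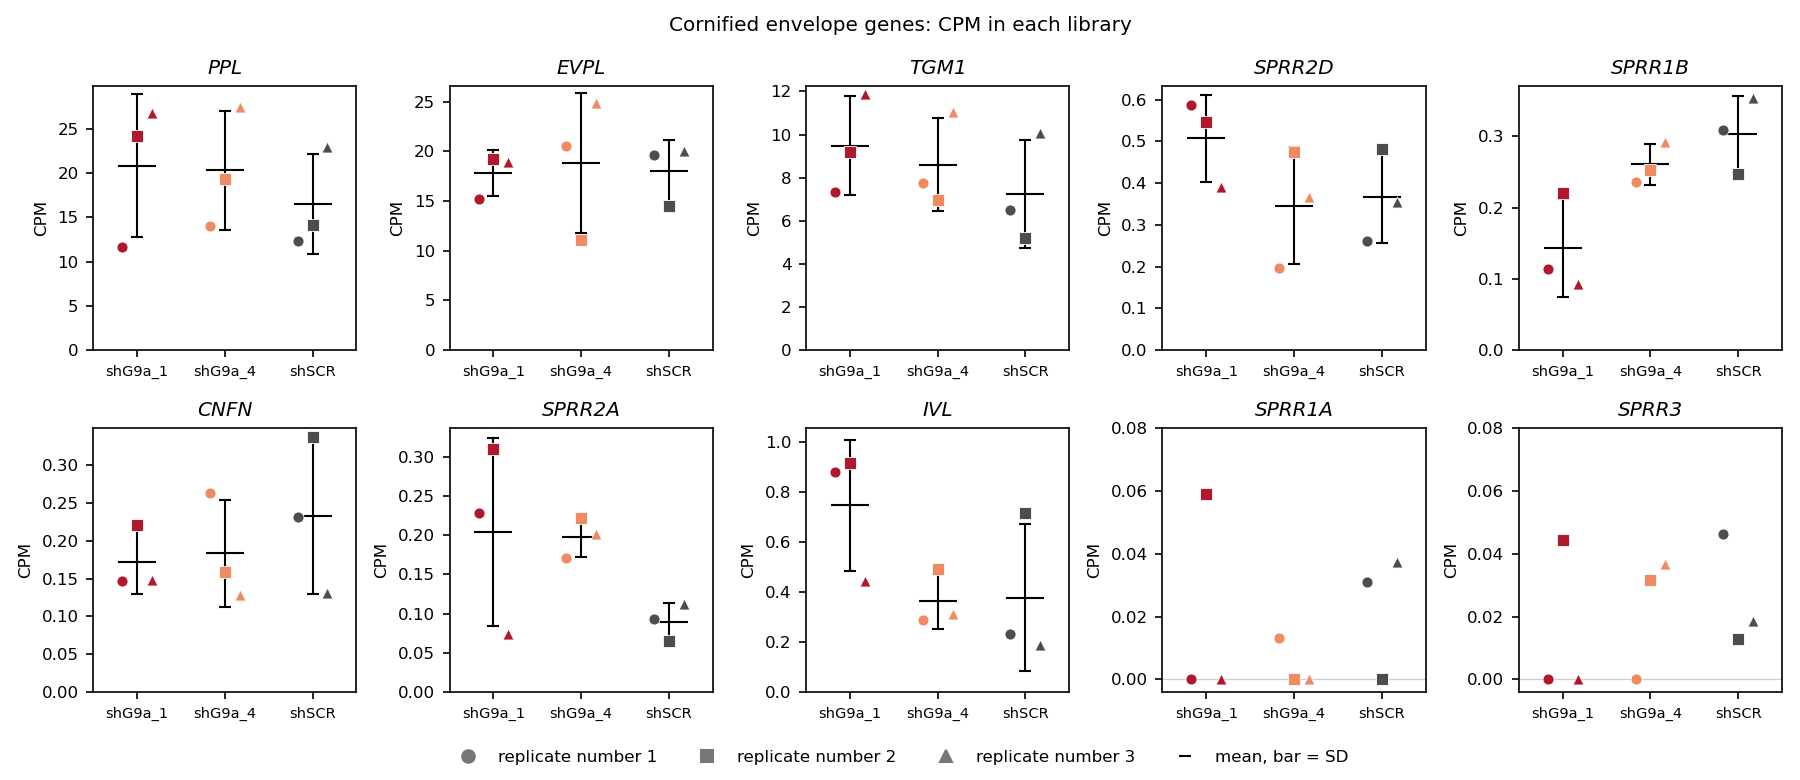
CPM of each of the 10 genes (y axes start near 0 and differ between panels) in the libraries of shG9a_1, shG9a_4 and shSCR; marker shapes give the replicate number, and the horizontal line and bar give the mean and SD (left out for SPRR1A and SPRR3, which have at most 4 reads per library). TGM1 and PPL peak in replicate 3 of each group, SPRR1B is lowest in shG9a_1, and SPRR2A is lowest in shSCR apart from a single shG9a_1 library.

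Of the 10 members, 8 were tested, and 0 of them passed an adjusted p of 0.05 in edgeR in shG9a_1 against shSCR, where 0.0380% of the 18435 genes tested did. The count was also 0 in shG9a_4 against shSCR, beside 0.0271% of all genes, and in shG9a_4 against shG9a_1, beside 0%. With the replicate number as a block the members' count stayed 0, beside 0.776% of all genes in shG9a_1 against shSCR, 0.0759% in shG9a_4 against shSCR and 0% in shG9a_4 against shG9a_1. DESeq2 and edgeR's likelihood ratio test called 0 as well. However, DESeq2 gave an adjusted p to only 5 of the 8 in shG9a_1 and 3 of the 8 in shG9a_4 against shSCR. SPRR1B and SPRR2A had none in either, so DESeq2 could not call them there. An unadjusted p under 0.05 in edgeR was reached by 2 of 8 members in shG9a_1 against shSCR, beside 1382 of all 18435 genes. It was reached by 1 of 8 in shG9a_4 against shSCR, beside 438 of 18435. Between shG9a_4 and shG9a_1 it was 2 of 8, beside 754 of 18435. Groups did not overlap for 1 of 8 members (12.5%) in each comparison. Over all genes the share was 14.7% in shG9a_1 against shSCR, 6.43% in shG9a_4 against shSCR and 9.17% between the hairpins. Since these members were chosen with the same libraries in view, nothing is read from these shares.

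The direction of the fitted values was mixed. In shG9a_1, 5 of the 8 tested members had higher and 3 lower fitted values than in shSCR, with a median log2 fold change of 0.37. In shG9a_4 the numbers were 4 and 4, with a median of −0.021. Over all genes tested the median was 0.00086 in shG9a_1 and 0.0021 in shG9a_4. The comparisons with shSCR share the same control libraries, and the members' values in each are given side by side in the plot of fitted differences. The authors' deposited table, which covers 11015 genes, lists 3 of the 10 members. There the smoothed fold of SPRR2D was 1.37 for shG9a_1 and 0.945 for shG9a_4, that of PPL 1.24 for shG9a_1 and 1.20 for shG9a_4, and that of EVPL 0.979 for shG9a_1 and 1.04 for shG9a_4. The authors' deposited table gives all 3 a posterior probability of differential expression of at most 0.00381.

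**Figure D4:**
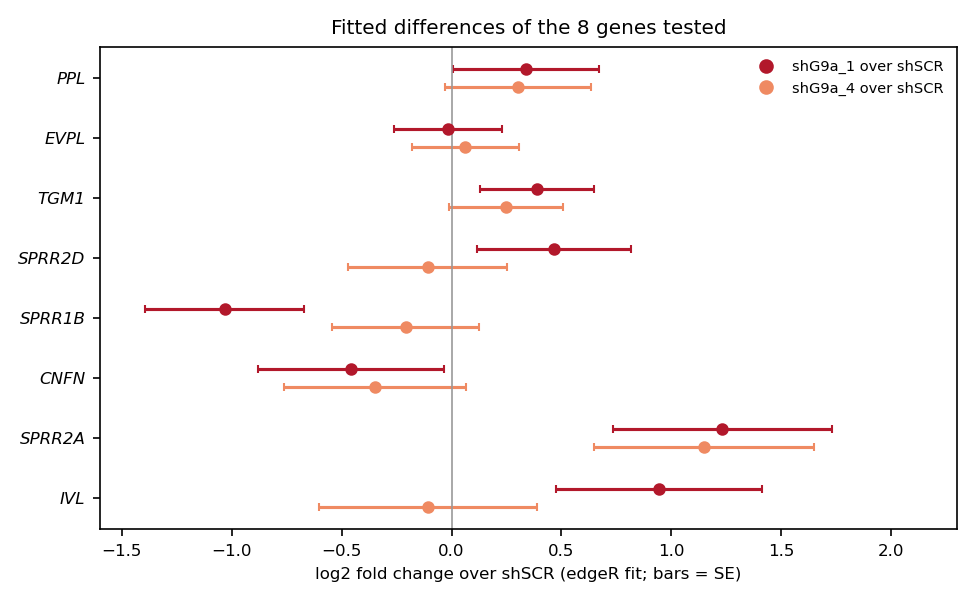
Log2 fold change over shSCR (x axis) of the 8 tested genes in shG9a_1 (dark red, upper point) and shG9a_4 (orange, lower point), with bars of 1 SE worked out from the edgeR test over all 9 libraries. SPRR2A lies to the right of 0 in both hairpins, SPRR1B lies at −1.03 in shG9a_1 and −0.21 in shG9a_4, and IVL lies at 0.94 in shG9a_1 and −0.11 in shG9a_4.

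Members differed in what their variation followed. The variation of log2(CPM + 0.5) over the 9 libraries was split into shares that go with the hairpin, with the replicate number and with neither. In PPL 80.5% and in TGM1 67.4% went with the number, against a median of 33.9% over all genes tested. By contrast SPRR1B had 71.1% with the hairpin and 1.84% with the number, where the median gene had 18.8% with the hairpin. IVL was divided, with 44.5% on the hairpin and 39.9% on the number, and SPRR2A had 45.4% on the hairpin and 43.1% on neither. In EVPL 0.0286% of the variation went with the hairpin. No label ties the replicate numbers to a day or batch, and what the number stands for was not tested.

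**Figure D5:**
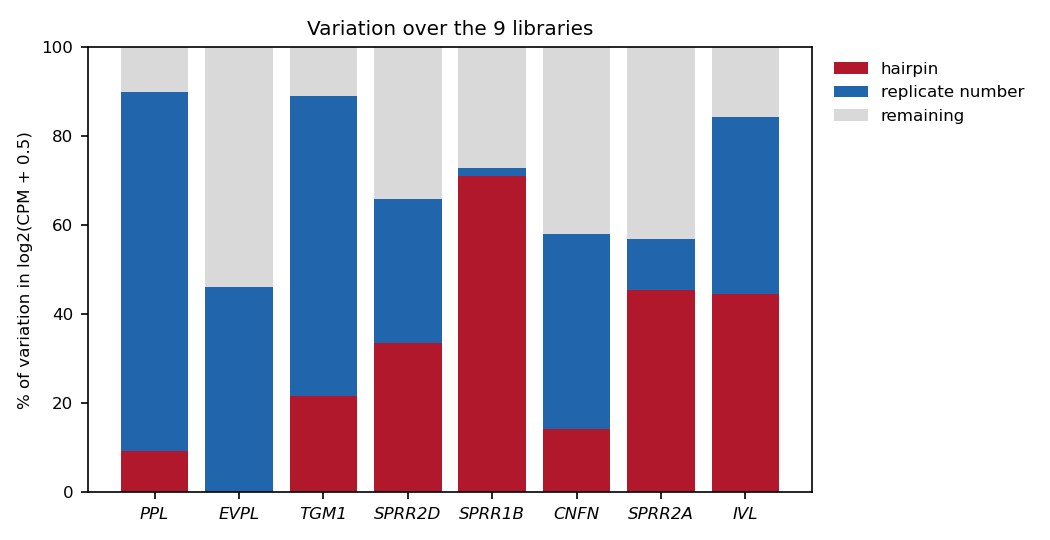
Stacked bars give, for the 8 tested genes, the % of the variation of log2(CPM + 0.5) over 9 libraries that goes with the hairpin (red), with the replicate number (blue) and with neither (grey). PPL and TGM1 are mostly blue (80.5% and 67.4%), SPRR1B is mostly red (71.1%), and EVPL has almost no red.

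The genes whose pattern over the 9 libraries lay nearest to a member, by the root mean square difference of centred log2(CPM + 0.5) among 10333 genes with a mean of at least 5 CPM, were found for 4 members. For SPRR1B they were PCBP1-AS1 (0.0800), DMAP1 (0.0817) and PDPR2P (0.0819), and for SPRR2A IFI44 (0.0805), JAZF1 (0.0854) and IFI44L (0.0908). For IVL they were NMNAT2 (0.127), QSOX1 (0.139) and GSDME (0.140), and for TGM1 EPB41L1 (0.132), JPH2 (0.144) and KRT8 (0.145). The members' own spread on this scale was 0.164 for SPRR1B, 0.170 for SPRR2A, 0.370 for IVL and 0.345 for TGM1. The points share the libraries and their depth. SPRR1B and SPRR2A reached at most 0.354 and 0.310 CPM, under the 0.5 that was added. This shrinks their log2 differences, and hardly those of the candidates, so genes with smaller fold differences can lie nearest. The genes named are the nearest of 10333, and no link to a member was tested.

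The rest of the pathway was followed in 7 lists with 156 genes, of which 87 were tested. None of them fell in shG9a_1 against shSCR, and none passed in either direction in shG9a_4 against shSCR or against shG9a_1, in edgeR with or without the replicate number as a block. Of 41 other envelope precursors, 15 had no read and 7 were tested, none passing, with a median log2 fold change of 0.27 in shG9a_1 and 0.13 in shG9a_4. Precursors outside the chromosome 1 cluster ranged widely, with KRTDAP, SBSN, CDSN and LY6D at mean levels of 0.0153 to 0.361 CPM per kb. The higher ones included CSTA (cystatin A, a protease inhibitor built into the envelope) at 30.05 CPM per kb and PI3 (elafin, another) at 54.5 CPM per kb.

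Among the other transglutaminases 3 of 7 were tested, and none passed without the block. TGM2, the widely expressed tissue transglutaminase, was the most abundant per length at 5.26 CPM per kb, beside 2.26 for TGM1. TGM5, an epidermal enzyme, had 1.24, 1.45 and 2.12 CPM in shG9a_1, 0.723, 0.934 and 1.28 CPM in shG9a_4, and 0.401, 0.883 and 1.02 CPM in shSCR. All shG9a_1 libraries lay above all shSCR libraries. The log2 fold change of TGM5 in shG9a_1 was 1.06 (SE 0.34), with an adjusted p of 0.592 in edgeR without the block and 0.0409 with it. TGM3, the enzyme of later envelope assembly, had 11 reads in all libraries together.

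Among 15 plakins and desmosomal partners 12 were tested, and among 18 genes of the lipid envelope 12, with 0 called in any comparison by edgeR with or without the block. Their median log2 fold changes in shG9a_1 were 0.098 and 0.13. Of 24 proteases and inhibitors of cornification, 15 were tested and none passed, at a median of 0.17. Desmoplakin (DSP), the abundant plakin of desmosomes, stood at 37.5 CPM per kb, beside 2.50 for PPL.

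Of 36 transcription regulators of epidermal differentiation, 30 were tested, at a median log2 fold change of 0.061 in shG9a_1 and 0.019 in shG9a_4. JUN, a subunit of AP-1, averaged 22.7 ± 2.27 CPM in shG9a_1, 17.9 ± 3.72 CPM in shG9a_4 and 15.3 ± 0.936 CPM in shSCR (SD, n = 3 each). It passed in shG9a_1 with the block alone (log2 fold change 0.56, adjusted p = 0.0434 in edgeR, against 0.461 without it). No level of an AP-1 protein or of its binding was measured.

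The stratified keratins were higher in shG9a_1 in 8 of 8 tested genes by fitted value, with a median log2 fold change of 0.47, and 0 passed without the block. In shG9a_4 against shSCR 6 were higher and 2 lower, with a median of 0.135. Over all genes tested the medians were 0.00086 in shG9a_1 and 0.0021 in shG9a_4. KRT16, a keratin of activated keratinocytes, averaged 82.2 ± 26.9 CPM in shG9a_1, 65.9 ± 30.1 CPM in shG9a_4 and 51.1 ± 22.5 CPM in shSCR (SD, n = 3 each), and passed in shG9a_1 with the block (log2 fold change 0.71, adjusted p = 0.0409 in edgeR, against 0.748 without it). KRT34, a hair keratin, averaged 3.44 ± 0.771 CPM in shG9a_1, 1.17 ± 0.174 CPM in shG9a_4 and 1.36 ± 0.461 CPM in shSCR (SD, n = 3 each). It too passed in shG9a_1 with the block (1.32, adjusted p = 0.0416 in edgeR, against 0.274). KRT14, a keratin of the basal layer, averaged 60.1 ± 23.1 CPM in shG9a_1, 54.2 ± 16.4 CPM in shG9a_4 and 33.4 ± 14.1 CPM in shSCR (SD, n = 3 each). With the block it passed in both hairpins, at 0.87 in shG9a_1 (adjusted p = 0.00576 in edgeR) and 0.74 in shG9a_4 (0.0148), against 0.633 in shG9a_1 and 1.00 in shG9a_4 without it. KRT14 and KRT16 have near-identical pseudogene copies, so their counts are uncertain.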

How the data were processed

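RNA of 9 cultures was sequenced as stranded total RNA without ribosomal RNA, with 75 bases read from each end, per the labels' protocols. The authors deposited raw counts per gene and library in STAR's layout, as the file headers show, in which reads with several possible origins stay uncounted. The submitters' processing notes name GRCh37, hg19, DESeq, R 3.3.1, edgeR 3.14.0 and STAR 2.5.2a with no role, and no annotation release. A second deposited table compares each hairpin with shSCR and holds, per the file headers, linear fold ratios and scores between 0 and 1 that are named as the posterior probability that expression is equal or differs.

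The reverse-strand column held 94.7 to 95.1% of stranded reads and was used. Classes that name no gene (no feature, 12.2 to 15.4% of reads; ambiguous, 2.49 to 2.68%; multimapped, 4.57 to 5.49%; unmapped, 2.75 to 4.34%) stayed out of library sizes and tests. PPL had 3.49% of its reads on the opposite strand, and the other members at most 2.5%. Gene symbols came from a name table and, for 421 IDs, from GENCODE 29. Exon lengths and shared windows of 75 bases also came from GENCODE 29, on another build. No pair of replicates was a duplicate (chi-square per degree of freedom 25.2 to 78.9, over genes with at least 20 reads in the pair).

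All 9 libraries entered a single fit in edgeR 4.0.16 under R 4.3.3 (quasi-likelihood F-test, TMM, filterByExpr, 6 residual degrees of freedom), two-sided, with Benjamini-Hochberg adjustment over 18435 genes at 0.05. The fit returns no SE, so each SE was taken as the absolute log2 fold change divided by the square root of the F statistic. SEs in shG9a_1 against shSCR had a median of 0.154. The script was tested on simulated data. The design text calls the replicates biological. Libraries with the same replicate number deviated together from their group means (r of 0.167 to 0.641 in 9 pairs, mean 0.409). The 18 other pairs ran from −0.490 to 0.285 (mean −0.204), so the ranges overlapped. Centring on group means ties the mean of the other pairs to that of the same-number pairs, so it is no separate contrast. The numbers appear to pair the libraries, by the data and not by a label. The main fit has no block, and the block is given where it changed a call. Alternatives were DESeq2 1.42.0, the likelihood ratio test, DESeq2's size factors, no filter, unstranded counts, the block, only the groups compared, each library left out, and a pseudocount of 1 in the split of variation.

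The members, the 13 other gene lists and the rules for naming genes were chosen with earlier results of these data known. Genes of the lists are named with fold changes where they passed the threshold in the fit with or without the block, and otherwise for their level. Some results for single genes of the lists are not reported here.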

Additional observations from a re-analysis of the deposited data

How the results depend on the processing

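No member was called in any of the 3 comparisons under those of the 17 settings that gave it an adjusted p, and DESeq2 gave none for 8 of the members' 24 values. Calls over all genes numbered 7 in shG9a_1 and 5 in shG9a_4 against shSCR and 0 in shG9a_4 against shG9a_1. In the same order they were 288, 49 and 106 without the filter on low counts, 79, 22 and 6 in DESeq2, 42, 17 and 5 by the likelihood ratio test, and 143, 14 and 0 with the replicate block, while unstranded counts gave 1 and a fit of only the groups compared gave 0 in shG9a_4 against shSCR. Leaving out a library gave 0 to 10, 0 to 7 and 0 calls. The block changed no call of a member; the calls it added among the listed genes stand in the report. Of 382 values of members under alternatives, 22 changed sign, 21 of them on leaving out a library; the other was EVPL in shG9a_1, at 0.014 with the block. The log2 fold changes that changed sign on leaving out a library had these ranges. In shG9a_4 against shSCR, SPRR2D ran from −0.43 to 0.19, IVL from −0.41 to 0.77, EVPL from −0.17 to 0.32, CNFN from −0.72 to 0.022 and KRT34 from −0.46 to 0.046. In shG9a_1 against shSCR, EVPL ran from −0.15 to 0.090. In shG9a_4 against shG9a_1, SPRR2A ran from −0.45 to 0.36, TGM1 from −0.36 to 0.053, PPL from −0.33 to 0.18, EVPL from −0.17 to 0.34 and CNFN from −0.27 to 0.34. The cause of these changes was not tested. In a fit of only the groups compared, SPRR2A did not pass the filter for shG9a_1 and shSCR, nor CNFN for shG9a_4 and shG9a_1, so those values are missing. The shares of variation moved by at most 3.28 percentage points with a pseudocount of 1 or unstranded counts. The 7 lower members had 62 to 157 reads per library among them, with SE of 0.33 to 0.50 for the 5 that were tested. PPL, at 713 to 1638 reads per library, had an SE of 0.33 in both hairpins against shSCR, while TGM1 and EVPL had 0.24 to 0.26. How much of these SEs comes from depth was not tested.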

Other observations

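Genes for proteins that mark layers of the epidermis were unevenly expressed in all 9 libraries. KRT10, the acidic keratin of suprabasal cells, had a mean of 16.5 CPM, while its basic partner KRT1 had 2 reads in all libraries together and KRT2 had 0. Of the desmosomal cadherins, DSG3 and DSC3, typical of the lower layers, stood at 17.2 and 9.45 CPM per kb of exons, while DSG1 and DSC1, typical of the upper layers, had 10 and 1 reads in all. PKP1, a plakophilin of the upper layers, was at 0.0764 CPM, beside 60.1 for PKP2 and 34.5 for PKP3.

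The proteases that shed the outermost cells were near the floor as well. KLK5 and KLK7, the main kallikreins of desquamation, had 9 and 23 reads over all libraries, KLK8 and KLK11 had 0, and CASP14, the caspase of cornification, had 12. Levels of inhibitors and lysosomal proteases ranged widely. SLPI (a secreted inhibitor) had a mean of 178 CPM per kb, while the inhibitors SPINK6, CST6, SPINK5 and SERPINB13 had 3.52, 0.550, 0.452 and 0.362 CPM per kb. CTSL (cathepsin L) had 87.2, CTSD (cathepsin D) 24.3 and CTSV (cathepsin V) 0.672 CPM per kb. Among enzymes of the lipid envelope, the lipoxygenase ALOX12B and the ceramide synthase CERS3 had 11 reads each, while DEGS1, which makes ceramides in many cell types, was at 262 CPM and ABCA12, a lipid transporter of lamellar granules, at 40.6 CPM.

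Regulators of epidermal differentiation covered the whole range. KLF5, EHF and NFE2L2 averaged 108, 118 and 110 CPM, TP63 and GRHL3 4.49 and 5.03 CPM, and ZNF750 and OVOL1, factors of late differentiation, 0.0716 and 0.0200 CPM.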
